A study of Mus musculus with 6 samples.

Results

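8 genes of the phosphoinositide 3-kinase (PI3K) pathway were followed in mouse CD4+ T cells. They encode the catalytic subunits Pik3ca, Pik3cb and Pik3cd, the regulatory subunits Pik3r1 and Pik3r5, the lipid phosphatase Inpp5d and the kinases Akt1 and Akt2. These 8 genes were taken by name from the 54532 genes listed in the count table, with earlier results of these data known. All 8 were among the 15938 genes abundant enough to be tested. Cells came from spleens of male C57BL/6 mice aged 6 to 8 weeks by magnetic negative selection. They were stimulated with plate-bound anti-CD3ε and anti-CD28 in the presence of IL-2, IL-12p70 and anti-IL-4, conditions that drive T helper 1 (Th1) differentiation, for 72 h. The Th1 group consisted of 3 such cultures, for which the methods give vehicle with 0.1% DMSO. The ALX group consisted of 3 cultures under the same conditions with 500 nM ALX-5407, which blocks glycine uptake through the transporter GlyT1 (Slc6a9). The labels give 72 h under these conditions, whereas the RNA sequencing methods give an exposure of 24 h, so the length of exposure is uncertain. The cultures are labelled as biological replicates, but whether they came from separate mice is not stated, so p-values measure the spread between these cultures.

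Class I PI3K adds a phosphate to the membrane lipid PI(4,5)P2 and thereby makes PIP3. In T cells it acts downstream of the antigen receptor, of costimulation through CD28 and of cytokine and chemokine receptors. PIP3 brings AKT to the membrane, where it is phosphorylated by PDK1 and mTORC2, and active AKT in turn keeps FOXO transcription factors out of the nucleus. The 5-phosphatase SHIP1 (Inpp5d) acts on PIP3 and so limits its level. p110δ (Pik3cd) is the catalytic subunit typical of leukocytes, whereas p110α (Pik3ca) and p110β (Pik3cb) are made in most tissues. The counts measure messenger RNA per gene, not protein, phosphorylation or lipid.

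Transcripts of 6 of the 8 genes rose with ALX-5407 and none fell. Pik3cd showed the largest change (1.69-fold), followed by Akt1 (1.54-fold), Pik3ca (1.34-fold), Pik3cb (1.32-fold), Inpp5d (1.24-fold) and Pik3r5 (1.19-fold). Akt2 and Pik3r1 did not pass the test. A gene was called when the adjusted p-value of edgeR's quasi-likelihood test (Benjamini-Hochberg over all genes tested) was under 0.05. By this rule 24.5% of all genes tested were higher in the ALX group (3910 genes) and 23.2% were lower (3695 genes). Among the 9221 genes with at least the mean count of Pik3cb, the least abundant of the 8 at 287 counts, 33.6% were higher. The median log2 fold change of the 8 genes was 0.36, compared with 0.0053 over all genes tested. Since the 8 were chosen with earlier results of these data known, this contrast describes them and cannot serve as a test of the set. None of the 8 passed the study's DESeq2 rule for differentially expressed genes, which also asks for an absolute log2 fold change over 1. The same thresholds applied to the edgeR test were met by 10.0% of the genes tested and by none of the 8. All 6 changes were therefore under 2-fold, including those with low p-values.

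The libraries held 30801753 to 36727788 counts on genes. Correlations of log2 CPM (counts scaled to library size with TMM factors) were 0.988 to 0.991 within groups and 0.965 to 0.970 between groups. T cell markers were abundant in every library, with a summed level of 3000 to 3270 CPM in the Th1 group and 2610 to 2740 CPM in the ALX group, and 1 of these 9 genes was higher and 4 were lower. Of 5 Th1 markers, 1 was higher and 2 were lower. B cell markers were low but moved in the same direction as the 6 genes, since 4 of the 6 on the list (Cd79a, Ms4a1, Pax5 and Cd22) were higher, and their summed level was 9.75 to 10.9 CPM in the Th1 group and 15.4 to 18.1 CPM in the ALX group. Of 8 myeloid markers, Csf3r was at 0 counts in all libraries and only Mpeg1 was abundant enough to be tested and was higher (0.162 to 0.447 CPM in the Th1 group, 1.16 to 1.71 CPM in the ALX group). The other 7 summed to 0.415 to 0.845 and 0.340 to 0.656 CPM, which overlapped, and 4 NK cell markers summed to at most 0.542 CPM in any library. The 2 CD8 T cell markers summed to 9.25 to 9.59 CPM in the Th1 group and 6.71 to 8.87 CPM in the ALX group. Of these, 1 was lower and none was higher. The part of these other cells in the results was not tested. In RNA from whole cultures, fewer cells of a type and less RNA per cell cannot be told apart.

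The promoters of the genes are shown first. Whether promoter sequence had a part in the changes was not tested. RefSeq promoter windows (GRCm38.p6, 250 bases before to 50 after a transcript start) were found for all 8 genes, 15 windows in total. The most upstream window of Pik3cd (chr4:149698659-149698958, minus strand) is given for the gene with the lowest p-value, that of Akt1 (chr12:112674835-112675134, minus strand) for the next, and that of Pik3ca (chr3:32396815-32397114, plus strand) as the only one with an ETS match. Each is written 5′ to 3′ on the strand of the gene, and capitals mark a motif (in Pik3ca on the opposite strand, so that its letters read in reverse complement).
Pik3cd: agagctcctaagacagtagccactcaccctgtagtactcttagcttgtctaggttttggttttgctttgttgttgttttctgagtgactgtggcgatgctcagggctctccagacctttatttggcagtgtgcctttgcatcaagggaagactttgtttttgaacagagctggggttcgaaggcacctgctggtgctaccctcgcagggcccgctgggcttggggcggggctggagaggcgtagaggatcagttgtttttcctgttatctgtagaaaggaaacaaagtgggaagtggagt
Akt1: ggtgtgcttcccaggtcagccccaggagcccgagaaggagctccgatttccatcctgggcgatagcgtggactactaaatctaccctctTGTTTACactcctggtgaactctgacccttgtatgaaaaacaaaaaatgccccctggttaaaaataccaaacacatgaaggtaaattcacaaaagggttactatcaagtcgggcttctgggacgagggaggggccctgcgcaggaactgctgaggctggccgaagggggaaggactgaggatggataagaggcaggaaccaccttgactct
Pik3ca: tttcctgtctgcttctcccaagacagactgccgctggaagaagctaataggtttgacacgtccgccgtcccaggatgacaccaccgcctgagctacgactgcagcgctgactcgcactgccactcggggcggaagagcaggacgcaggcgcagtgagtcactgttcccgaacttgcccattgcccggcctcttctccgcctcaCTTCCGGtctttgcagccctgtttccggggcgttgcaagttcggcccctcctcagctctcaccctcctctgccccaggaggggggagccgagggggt

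3 motifs were searched on both strands. The FOXO motif TGTTTAC occurred in 1 of the 15 windows, that of Akt1, 161 bases before the start, and in 3.65% of the 32851 mouse promoter windows of the same length. The ETS motif CCGGAAG was present in 1 of the 15, that of Pik3ca, 47 bases before the start, and in 8.86% of all windows. The E-box CACGTG was in 0 of the 15 and in 7.15% of all windows. No capitals therefore appear in the Pik3cd window. The median GC content was 54.3% in the 15 windows and 52.7% in all windows, with a median of 8 and 7 CpG dinucleotides. A match describes the letters of a window and does not show binding.

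Pik3cd, the catalytic subunit p110δ, lies on the minus strand of chromosome 4 (chr4:149649168-149702571, GRCm38), with 14 annotated transcripts, 12 of them coding, and 6259 bases of exons. In the Th1 cultures, 538.6, 481.3 and 495.9 CPM were measured, and in the ALX cultures 885.2, 859.1 and 821.2 CPM. Every ALX library lay above every Th1 library, with a wide gap between the groups. Expression was 505.3 ± 29.8 CPM (SD, n = 3) in the Th1 group and 855.2 ± 32.2 CPM (SD, n = 3) in the ALX group. The log2 fold change was 0.76 (standard error 0.0721, 95% interval 0.61 to 0.91, adjusted p = 3.8e-07 in edgeR). Of all genes tested, 3.10% had a smaller p-value and 7.98% had a higher log2 fold change.

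Pik3ca, which encodes p110α (chr3:32397671-32468486, plus strand, 21 merged exons), was less abundant. Its level was 95.4, 87.4 and 108.2 CPM in the Th1 libraries and 122.4, 129.9 and 137.2 CPM in the ALX libraries. The groups did not overlap, and Th1 replicate 3 came closest to the ALX libraries. The means were 97.0 ± 10.5 CPM and 129.8 ± 7.43 CPM (SD, n = 3). This was a log2 fold change of 0.42 (standard error 0.0833, 95% interval 0.24 to 0.60, edgeR adjusted p = 0.000563).

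Pik3cb, the gene of p110β (chr9:99036654-99140621, minus strand), had the lowest counts of the 8 genes. Reads numbered 214, 227 and 246 in the Th1 libraries and 336, 350 and 349 in the ALX libraries, or 6.57, 7.24 and 7.99 against 9.52, 9.38 and 9.95 CPM. All ALX values were above all Th1 values, but the interval of the change was wide. The log2 fold change was 0.40 (standard error 0.132, 95% interval 0.13 to 0.68, edgeR adjusted p = 0.0183). The call was lost without Th1 replicate 1 (log2 fold change 0.33, edgeR adjusted p = 0.0847) and without Th1 replicate 2 (0.39, edgeR adjusted p = 0.0503). Pseudogene Gm12992, which matches Pik3cb over 522 bases at 95% identity or more, had 12 to 32 counts, equal to 3.43% to 15% of the Pik3cb count, so reads may be split between them. With its counts added, the log2 fold change of Pik3cb was 0.34 (edgeR adjusted p = 0.0366).

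**Figure D1:**
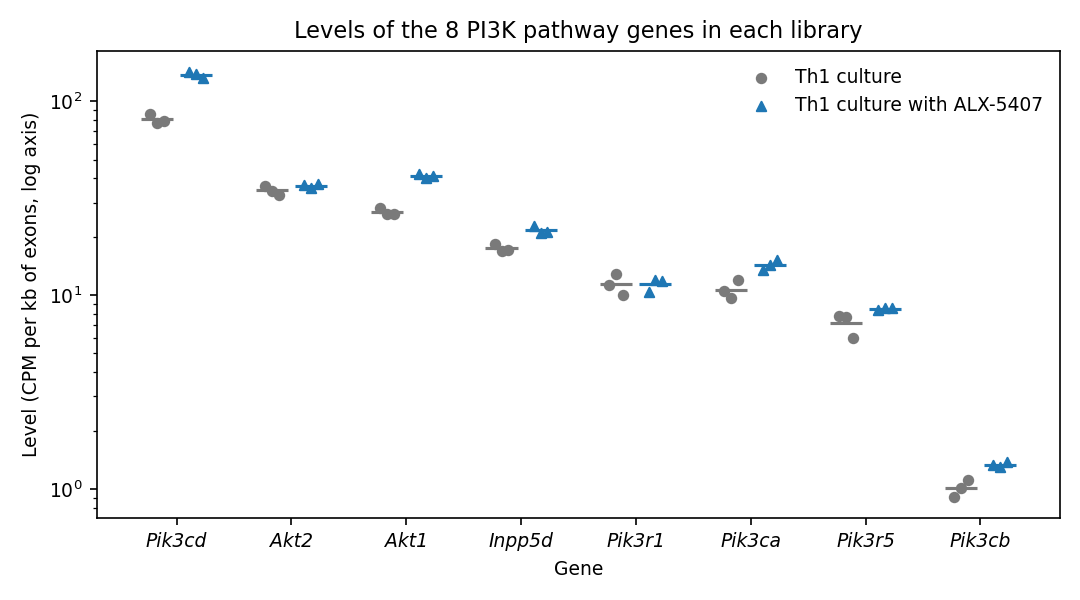
Level of each of the 8 genes (x axis) in each library, as CPM per kb of exons on a log axis; circles are the 3 Th1 cultures, triangles the 3 cultures with ALX-5407 and lines the group means. Pik3cd is highest in both groups, and the groups overlap for Akt2 and Pik3r1 alone. Akt1 moves from below Akt2 to above it per kb, but stays below it in CPM without length.

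Compared per kb of exons, so that genes of different length can be set side by side, Pik3cd dominated the catalytic subunits. Its share of the summed level of Pik3ca, Pik3cb and Pik3cd was 88.3%, 87.9% and 85.9% in the Th1 libraries and 90.5%, 89.8% and 88.8% in the ALX libraries. Pik3ca made up 8.62% to 12.9% and Pik3cb 0.847% to 1.20% over all 6 libraries. The summed level rose from 92.4 ± 4.98 to 152.3 ± 4.30 CPM per kb (SD, n = 3 each). Pik3cg, which encodes the catalytic subunit p110γ, is not in this sum. It measured 40.6 CPM in the Th1 group and 45.5 CPM in the ALX group and was not called.

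Pik3r1 encodes p85α, the regulatory subunit that binds and stabilises the class IA catalytic subunits and, through alternative starts, also gives p55α and p50α. The gene lies on chr13:101680563-101768217, minus strand, with 7 annotated transcripts that a count per gene cannot separate. Its level was 113.5, 129.7 and 100.3 CPM in the Th1 libraries and 105.1, 121.0 and 119.7 CPM in the ALX libraries. The 2 groups overlapped, and the Th1 libraries spread more widely than the ALX libraries. The log2 fold change was 0.0094 (standard error 0.0907, edgeR adjusted p = 0.945), and its 95% interval of -0.18 to 0.20 allows a change of up to 1.15-fold. The sign was negative under upper quartile scaling (-0.044), under RLE size factors (-0.0043) and without Th1 replicate 1 or 3 or ALX replicate 2 or 3 (lowest value -0.093, without Th1 replicate 3), and no direction is therefore given.

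Pik3r5 encodes p101, the regulatory partner of the G protein-coupled class IB enzyme p110γ (chr11:68432121-68497849, plus strand). The Th1 libraries had 43.4, 42.9 and 33.4 CPM and the ALX libraries 46.7, 47.7 and 47.5 CPM. No values overlapped, but 2 Th1 libraries were close to the ALX group and Th1 replicate 3 was lower. The log2 fold change was 0.24 (standard error 0.0951, 95% interval 0.043 to 0.45, edgeR adjusted p = 0.0435). Without Th1 replicate 3 it was 0.12 (edgeR adjusted p = 0.223), and the call was also lost without ALX replicate 1 (0.26, edgeR adjusted p = 0.0770), 2 (0.24, edgeR adjusted p = 0.0993) or 3 (0.25, edgeR adjusted p = 0.0872). With DESeq2 the adjusted p-value was 0.0720. The rise of Pik3r5 thus rested on settings and libraries more than that of any other called gene among the 8.

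Inpp5d encodes SHIP1, which removes the 5-phosphate of PIP3 in blood cells (chr1:87620312-87720507, plus strand, 11 annotated transcripts). Its level was 139.2, 128.2 and 130.6 CPM in the Th1 libraries and 173.5, 159.2 and 161.2 CPM in the ALX libraries. All 3 ALX libraries were higher than all Th1 libraries. Group means were 132.7 ± 5.79 CPM and 164.7 ± 7.74 CPM (SD, n = 3), and the log2 fold change was 0.31 (standard error 0.0708, 95% interval 0.16 to 0.46, edgeR adjusted p = 0.0017).

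Akt1, a widely made AKT kinase, lies on chr12:112653821-112674884, minus strand, with 4098 bases of exons. In the Th1 libraries 115.2, 107.2 and 106.7 CPM were measured and in the ALX libraries 172.3, 165.3 and 169.4 CPM. The groups were far apart and the spread within each was small. In the Th1 group the mean was 109.7 ± 4.75 CPM and in the ALX group 169.0 ± 3.51 CPM (SD, n = 3), with a log2 fold change of 0.62 (standard error 0.0688, 95% interval 0.48 to 0.77, edgeR adjusted p = 1.9e-06).

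Akt2, the AKT kinase best known from insulin signalling, lies on chr7:27591552-27640826, plus strand. It measured 261.2, 244.6 and 235.1 CPM in the Th1 libraries and 262.7, 253.5 and 265.1 CPM in the ALX libraries. Th1 replicate 1 lay within the range of the ALX libraries, so the groups overlapped. The log2 fold change of 0.077 (standard error 0.0698, edgeR adjusted p = 0.392) had a 95% interval of -0.071 to 0.22, which allows a rise of up to 1.17-fold. Pseudogene Akt2-ps matches Akt2 over 1449 bases and had 185 to 317 counts, 2.56% to 3.35% of the Akt2 count. Adding them left the log2 fold change at 0.079 (edgeR adjusted p = 0.374).

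Groups did not overlap for 6 of the 8 genes, with all ALX libraries above all Th1 libraries, as was the case for 28.4% of all genes tested. That share includes genes less abundant than any of the 8, and it was not computed at matched abundance. In each of 15 alternative fits, Pik3cd, Akt1, Pik3ca and Inpp5d kept their calls and Akt2 was not called.

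**Figure D2:**
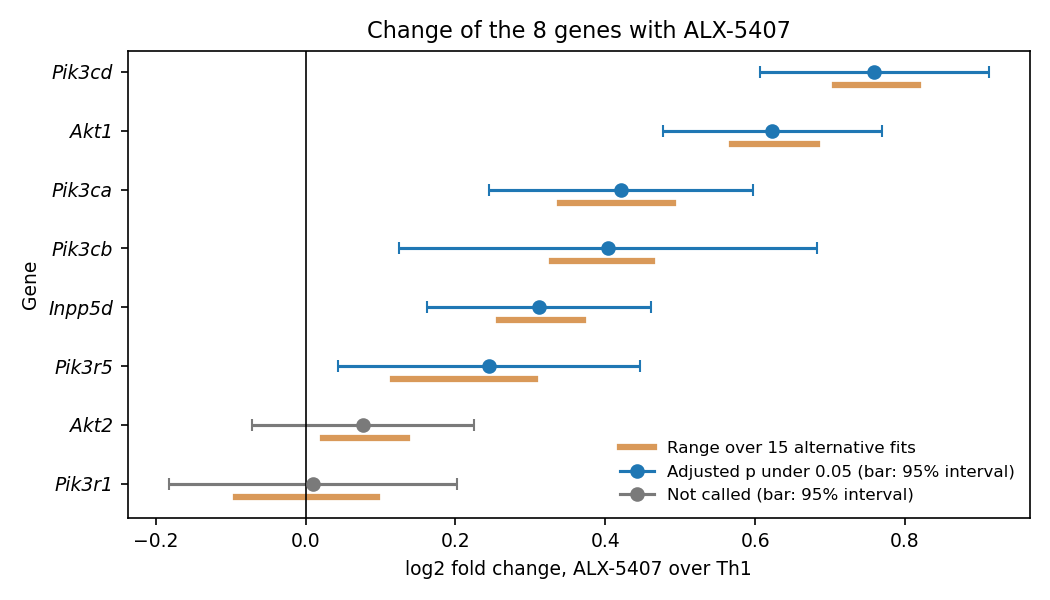
Log2 fold change of each gene, ALX-5407 over Th1, from edgeR (x axis; points with 95% intervals), with the range over 15 alternative fits as a bar below each point. Pik3cd (0.76) and Akt1 (0.62) lie farthest from 0, and the intervals of Akt2 and Pik3r1 cross 0.

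The order of the 8 genes by level per kb in the Th1 group was Pik3cd (80.7 ± 4.76 CPM per kb), Akt2 (34.6 ± 1.86), Akt1 (26.8 ± 1.16), Inpp5d (17.5 ± 0.761), Pik3r1 (11.4 ± 1.46), Pik3ca (10.7 ± 1.16), Pik3r5 (7.19 ± 1.01) and Pik3cb (1.01 ± 0.0989). Only the ranges of Pik3r1 and Pik3ca overlapped among neighbours in this order. In the ALX group the order was Pik3cd (136.6 ± 5.15 CPM per kb), Akt1 (41.2 ± 0.856), Akt2 (36.5 ± 0.858), Inpp5d (21.7 ± 1.02), Pik3ca (14.3 ± 0.817), Pik3r1 (11.4 ± 0.877), Pik3r5 (8.52 ± 0.0948) and Pik3cb (1.34 ± 0.0416). No neighbouring ranges overlapped there (SD, n = 3 throughout). Akt1 and Akt2 thus changed places per kb. In CPM, without length, Akt2 stayed above Akt1 (246.9 against 109.7 in the Th1 group, 260.4 against 169.0 in the ALX group). Their order per kb therefore depends on the exon lengths used. Pik3ca was above Pik3r1 in every ALX library, and already so in Th1 replicate 3.

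Ratios between genes of the same library do not depend on library scaling, and 6 were compared with a two-sided exact permutation test, for which 3 against 3 libraries cannot give a p-value below 0.1. The ratio of Akt1 to Akt2 per kb was 0.767, 0.763 and 0.790 in the Th1 libraries and 1.14, 1.14 and 1.11 in the ALX libraries. The groups did not overlap, with a mean log2 difference of 0.55 (exact p = 0.1, adjusted over the 6 ratios 0.12). Relative to Pik3ca, Pik3cd went from a ratio of 7.58 to 9.57 (geometric means, no overlap; log2 difference 0.34, exact p = 0.1), and relative to Pik3cb it went from 80.1 to 102.2 (0.35, with Th1 replicate 1 close to ALX replicate 3, exact p = 0.1). Pik3cb and Pik3ca had a ratio of 0.0947 in the Th1 group and 0.0936 in the ALX group, with overlapping values (log2 difference -0.017, exact p = 0.8), and this sign turned when Th1 replicate 2 (0.055) or ALX replicate 2 (0.0021) was left out.

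The ratios of Pik3r1 and Inpp5d to the summed catalytic subunits (mostly Pik3cd) were lower in all ALX libraries than in all Th1 libraries. Of the regulatory subunits, only Pik3r1 is in these ratios. Pik3r2, which encodes p85β, is left out and rose from 36.1 to 47.6 CPM (log2 fold change 0.40). Pik3r1 per unit of the 3 catalytic transcripts was 0.116, 0.147 and 0.108 in the Th1 libraries and 0.0667, 0.0785 and 0.0804 in the ALX libraries. The mean log2 difference was -0.71 (exact p = 0.1, adjusted 0.12), with no overlap. For Inpp5d the ratio was 0.188, 0.193 and 0.186 against 0.146, 0.137 and 0.144, also with no overlap and with little spread within groups (log2 difference -0.41, exact p = 0.1, adjusted 0.12). Inpp5d itself was higher in the ALX group, so the lower ratio came with a larger rise of the catalytic sum. To Pik3ca alone, the ratio of Inpp5d was 1.74, 1.75 and 1.44 in the Th1 libraries and 1.69, 1.47 and 1.40 in the ALX libraries, and the groups overlapped. That of Pik3r1 to Pik3ca overlapped as well, at 0.836 to 1.34 against 0.774 to 0.839. These are ratios of transcripts and do not give the ratio of proteins in the complex.

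**Figure D3:**
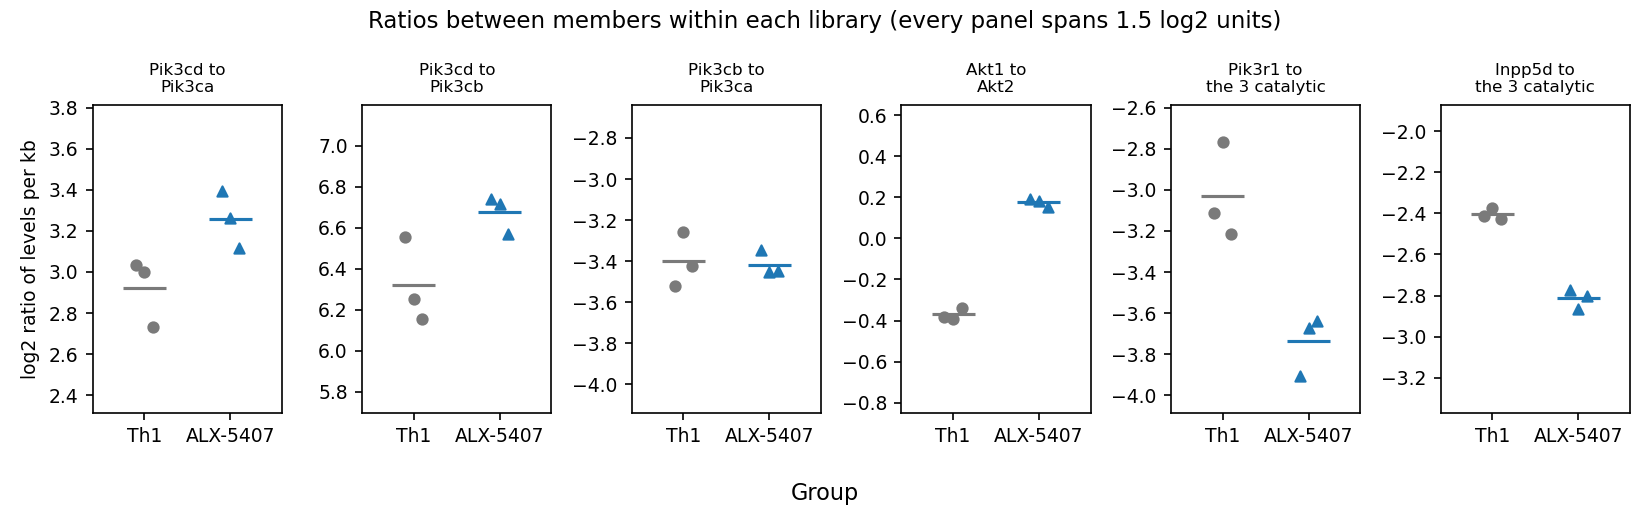
Log2 ratio of levels per kb within each library for 6 pairs (y axis; each panel spans 1.5 log2 units), by group (x axis; circles Th1, triangles ALX-5407, lines means). Akt1 to Akt2 moves up, Pik3r1 and Inpp5d to the 3 catalytic subunits move down, and Pik3cb to Pik3ca overlaps between groups.

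Over the 6 libraries, the genes whose log2 CPM, centred on their own mean, lay closest to Pik3cd among 12116 genes were Pold1 (Euclidean distance 0.0499), Sbk1 (0.0640), Tcf3 (0.0802), Psmd3 (0.0806) and Klf13 (0.0865). Pold1 encodes the catalytic subunit of DNA polymerase δ, Psmd3 a proteasome subunit and Tcf3 the E protein E2A. Their log2 fold changes were 0.73 to 0.77, close to that of Pik3cd, and with 6 libraries in 2 groups the measure mostly reads this difference.

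Around the 8 genes, 99 other genes of the pathway were followed in 9 lists. Of these, 96 were tested, and 36 were higher, 25 were lower and 35 were not called, shares of 37.5% and 26.0%. Most of these genes are abundant, and of the 89 with at least the mean count of Pik3cb, 39.3% were higher and 27.0% lower, near the 33.6% and 26.5% of all genes above that count. Their median log2 fold change was 0.091. Pik3c2g, Inpp5j and Irs1 were too low to test, with at most 8 counts in any library.

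Of the 4 remaining class I subunits, 1 rose and 1 fell. Pik3r2, which encodes p85β, rose from 36.1 ± 3.07 to 47.6 ± 4.16 CPM (SD, n = 3 each; log2 fold change 0.40, edgeR adjusted p = 0.00159). Pik3r6, which encodes the p84 partner of p110γ, fell from 2.27 ± 0.246 to 1.08 ± 0.162 CPM (log2 fold change -1.07, edgeR adjusted p = 0.00345) at a mean of 55.3 counts. The other class IB partner, Pik3r5, was higher, but by a call that held in only 6 of 15 alternative fits and was lost without Th1 replicate 3 (log2 fold change 0.12, edgeR adjusted p = 0.223). Of 4 tested class II and III genes, only Pik3c3, the class III kinase of autophagy and endosomes, was called (log2 fold change -0.24, edgeR adjusted p = 0.0209). This call was lost without Th1 replicate 1 (edgeR adjusted p = 0.0556), without ALX replicate 1 (log2 fold change -0.18, edgeR adjusted p = 0.136) and with library totals only (-0.18, edgeR adjusted p = 0.084).

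Among 11 tested phosphoinositide phosphatases beside Inpp5d, 3 were higher (27.3%), 2 were lower (18.2%) and 6 were not called. Of all genes at least as abundant as Pik3cb, 33.6% were higher and 26.5% lower. Inpp4b, a 4-phosphatase acting on PI(3,4)P2, rose from 134.9 ± 18.2 to 176.5 ± 6.65 CPM (log2 fold change 0.39, edgeR adjusted p = 0.00154), whereas Inpp5k fell with a log2 fold change of -0.30 (edgeR adjusted p = 0.00612). The related Inpp4a (log2 fold change 0.25, edgeR adjusted p = 0.0223) and Inppl1, which encodes SHIP2 (-0.19, edgeR adjusted p = 0.0398), passed the test, but their calls were lost in 5 and 7 of 15 alternative fits. That of Inpp4a was lost without Th1 replicate 1 (edgeR adjusted p = 0.0747), Th1 replicate 2 (0.121) or ALX replicate 3 (0.0945), with upper quartile scaling (0.067) and with protein-coding genes alone (0.0503). That of Inppl1 was lost without Th1 replicate 1 (edgeR adjusted p = 0.101), Th1 replicate 2 (0.0568) or ALX replicate 1 (0.197), 2 (0.0843) or 3 (0.0599), with library totals only (0.157) and with no filter on low counts (0.111).

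On a list of 11 genes of kinases and phosphatases that act with or on AKT, 6 were higher (54.5%) and 3 were lower (27.3%). Of all genes at least as abundant as Pik3cb, 33.6% were higher and 26.5% lower. The kinase Mtor rose from 73.3 ± 4.11 to 104.4 ± 2.75 CPM (log2 fold change 0.51, edgeR adjusted p = 2.36e-05), as did the mTORC2 subunit Mapkap1 (0.50, edgeR adjusted p = 5.59e-05) and the AKT phosphatase Phlpp2 (0.45, edgeR adjusted p = 0.00262). Rictor, which defines mTORC2, fell from 163.4 ± 12.3 to 110.7 ± 4.10 CPM (log2 fold change -0.56, edgeR adjusted p = 1.25e-05), and Mlst8, shared by both mTOR complexes, also fell (-0.50, edgeR adjusted p = 0.0013). Subunits of mTORC2 therefore moved both ways.

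Upstream of PI3K, 4 of 14 tested receptors and adaptors were higher (28.6%) and 5 were lower (35.7%). The shares among all genes at least as abundant as Pik3cb were 33.6% and 26.5%. Trat1, an adaptor of the T cell receptor complex that can bind p85, rose from 16.6 ± 1.97 to 33.4 ± 3.13 CPM (log2 fold change 1.01, edgeR adjusted p = 1.16e-06). The costimulatory receptor Cd28 rose from 535.0 ± 18 to 766.5 ± 54.9 CPM (0.52, edgeR adjusted p = 2.44e-05). The E3 ligases Cbl and Cblb, both negative regulators of T cell signalling, moved in opposite directions, with a log2 fold change of 0.49 (edgeR adjusted p = 6.08e-05) and -0.84 (edgeR adjusted p = 2.27e-07). Cblb went from 499.8 ± 42.6 to 279.0 ± 7.49 CPM. Pik3ip1, a membrane protein that inhibits PI3K, fell from 37.7 ± 2.82 to 21.96 ± 3.12 CPM (log2 fold change -0.78, edgeR adjusted p = 1.69e-05), and the adaptor Irs2 fell as well (-0.69, edgeR adjusted p = 2.3e-06).

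Of 10 kinases that make PI(4)P and PI(4,5)P2, the substrate of class I PI3K, 6 rose (60.0%) and none fell. Among all genes at least as abundant as Pik3cb, 33.6% were higher and 26.5% lower. The list, with a median log2 fold change of 0.34, was chosen with earlier results of these data known. Pip4k2b showed the largest change (log2 fold change 0.79, edgeR adjusted p = 1.79e-06), followed by Pip5k1c (0.68, edgeR adjusted p = 2.49e-06) and Pip4k2a (0.54, edgeR adjusted p = 3.31e-05).

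Among 14 PIP3-binding effectors, 6 were higher (42.9%) and 3 were lower (21.4%). The shares among all genes at least as abundant as Pik3cb were 33.6% and 26.5%. The Rac exchange factors Dock2 (log2 fold change 0.58, edgeR adjusted p = 5.33e-06) and Prex1 (0.53, edgeR adjusted p = 1.56e-05) rose. Plcg1, a phospholipase of T cell receptor signalling, fell from 338.0 ± 15 to 237.2 ± 9.76 CPM (-0.51, edgeR adjusted p = 1.82e-05), and the kinase Tec (-0.51, edgeR adjusted p = 0.000293) and the adaptor Dapp1 fell as well (-0.29, edgeR adjusted p = 0.0107).

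Genes of 14 AKT substrates were higher in 6 cases (42.9%) and lower in 4 (28.6%). Of all genes at least as abundant as Pik3cb, 33.6% were higher and 26.5% lower. Wnk1 (log2 fold change 0.77, edgeR adjusted p = 2.2e-07), the transcription factor Foxo3 (0.84, edgeR adjusted p = 5.63e-07) and Tsc2 (0.57, edgeR adjusted p = 1.52e-05) rose. Its partner Tsc1 fell (-0.32, edgeR adjusted p = 0.00266), as did the cyclin-dependent kinase inhibitor Cdkn1b (-0.66, edgeR adjusted p = 2.55e-06) and Tbc1d4, which acts in glucose transporter traffic (-0.89, edgeR adjusted p = 8.02e-05). AKT acts on these proteins by phosphorylation, which transcript counts do not measure.

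FOXO target genes known from T cells moved both ways, with 4 of 14 higher (28.6%) and 6 lower (42.9%). The shares among all genes at least as abundant as Pik3cb were 33.6% and 26.5%. The number of higher FOXO target genes was 2 in 8 of 15 alternative fits, with 6 lower in each of the 8. Among these were the fits without Th1 replicate 1, ALX replicate 1 or ALX replicate 3 and those with DESeq2, RLE or upper quartile scaling. Klf2, a transcription factor of T cell trafficking, rose from 5.17 ± 1.34 to 13.6 ± 1.76 CPM (log2 fold change 1.39, edgeR adjusted p = 5.51e-06). S1pr1, the receptor for lymphoid tissue exit and itself a KLF2 target, fell from 214.9 ± 10.7 to 99.1 ± 4.15 CPM (-1.12, edgeR adjusted p = 6.75e-09). The homing receptor Ccr7 (-0.53, edgeR adjusted p = 2.31e-05) and Ccng2, a cyclin gene (-0.48, edgeR adjusted p = 7.2e-05), also fell, and Tcf7, a transcription factor of naive and memory T cells, rose (0.36, edgeR adjusted p = 0.00486). Its relative Lef1 was called at a log2 fold change of 0.26 (edgeR adjusted p = 0.0416), but not without Th1 replicate 1 (edgeR adjusted p = 0.0852) or 3 (0.11, edgeR adjusted p = 0.2), nor without ALX replicate 1 (edgeR adjusted p = 0.0777), 2 (0.127) or 3 (0.0588). Its call was lost in 10 of 15 alternative fits in all, DESeq2 included (adjusted p = 0.051).

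**Figure D4:**
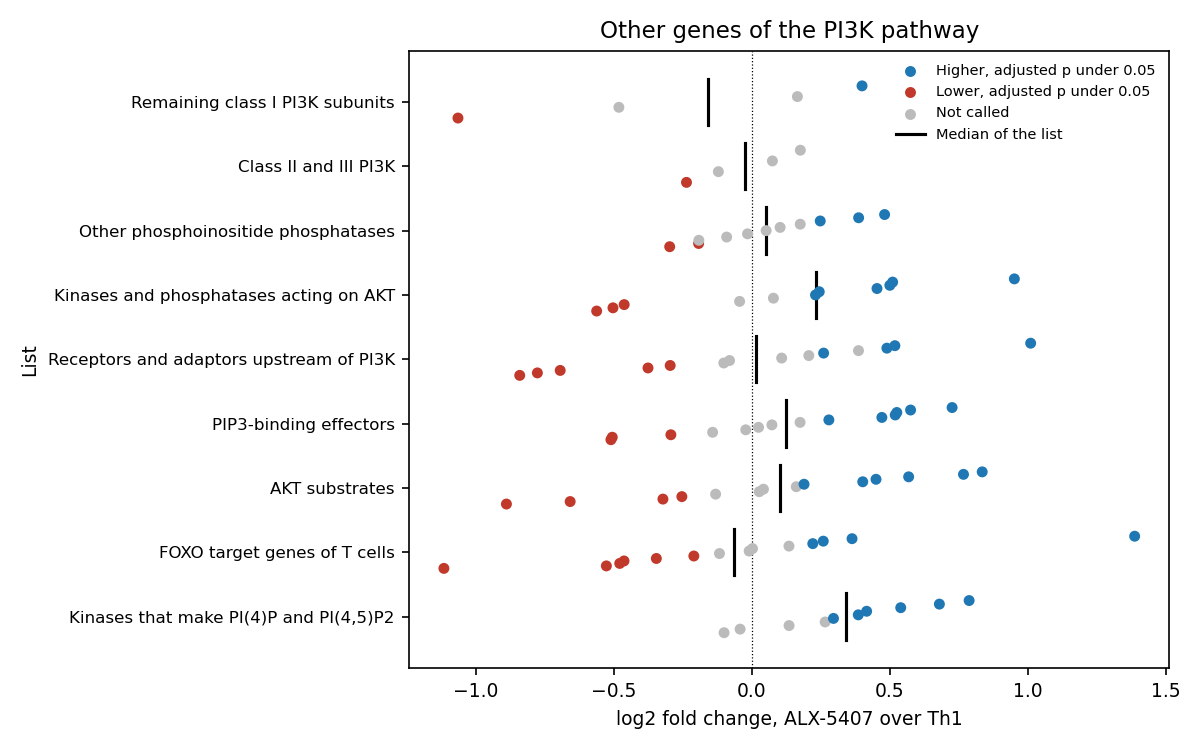
Log2 fold change, ALX-5407 over Th1 (x axis), of each tested gene in the 9 lists of other pathway genes (y axis); blue is higher and red lower at an adjusted p under 0.05 in edgeR, grey is not called, and black lines are list medians. Kinases that make PI(4)P and PI(4,5)P2 (10 genes) have no red point. The FOXO target genes have 4 blue and 6 red points, with 2 higher in place of 4 in 8 of 15 alternative fits. Of all genes at least as abundant as Pik3cb, 33.6% were higher and 26.5% lower.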

How the data were processed

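RNA sequencing covered 6 cultures, 3 per group, and groups and replicate numbers were taken from the labels. The authors deposited raw counts, whole numbers of reads per gene and library without normalization or pooling, with gene names, lengths and GRCm38 coordinates. The submitters' processing notes name fastp, HISAT2 2.0.5 and featureCounts 1.5.0-p3 on mm10. Whether counting used strand, and how reads with several matches were treated, is not given in the sources used here. The labels describe poly-T selection and the methods depletion of ribosomal RNA.

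edgeR 4.0.16 (R 4.3.3) was run on the counts with filterByExpr (minimum count 10), TMM scaling and the quasi-likelihood F test, adjusted over the 15938 genes tested. CPM values use TMM-scaled library sizes, and levels per kb use the deposited exon lengths. The 6 ratios were compared with exact permutation tests (SciPy 1.17.1). Alternatives were other scalings and filters, DESeq2 1.42.0, limma-voom (limma 3.58.1), a replicate block, protein-coding genes alone, the fold threshold and each library left out. Exon overlaps came from GENCODE M21 (release 21), and similar genes from BLAST 2.17.0 (matches of at least 100 bases at 95% identity). No exons of the 8 genes overlap another gene. Figures were drawn with matplotlib 3.10.9 in Python 3.11.15. The edgeR step was checked on simulated counts.

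The 8 genes and the 9 lists were chosen with earlier results of these data known. In each list, up to 3 called genes per direction with the smallest p-values and a mean of at least 50 counts are named, and 5 genes closest to Pik3cd. The results of 3 genes on these lists are counted there but not reported here by name. Counts of replicates varied beyond sampling noise (chi-square per degree of freedom 5.65 to 22.4), and each library counts as 1 replicate. The precision of a value rests on counts of 214 to 32050 per library for the 8 genes.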

Additional observations from a re-analysis of the deposited data

How the results depend on the processing

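The 8 genes were refitted under 15 alternatives. Calls and directions of Pik3cd (log2 fold change 0.71 to 0.82), Akt1 (0.57 to 0.68), Pik3ca (0.34 to 0.49) and Inpp5d (0.26 to 0.37) held in all 15, and Akt2 (0.023 to 0.14) was called in none. Pik3r5 was not called with RLE size factors (0.23, adjusted p = 0.0581), upper quartile scaling (0.19, 0.109), DESeq2 (0.24, 0.0720), a mean of at least 50 counts (0.22, 0.0643) or protein-coding genes alone (0.20, 0.0870), and leaving out each library gave 0.12 to 0.30. The Pik3cb call was lost only in fits without a library, which gave 0.33 to 0.46. Pik3r1, never called, changed sign with RLE (-0.0043), upper quartile scaling (-0.044), the mean of at least 50 counts (-0.019) and protein-coding genes alone (-0.038), and with libraries left out (-0.093 to 0.095). The cause was not tested. With the threshold on fold change, 0 of the 8 genes were called (0 higher) and 4 of the pathway genes (2 higher, 2 lower). By that rule 10.0% of all genes tested were called. Fits that left out a library, by adjusted p-value alone, called 5 of the 8 genes and 53 to 61 pathway genes. These fits called 39.6% to 46.5% of all genes tested. The log2 difference of the ratio of Pik3cb to Pik3ca was -0.078 to 0.055 with libraries left out. The 3 same-numbered pairs of libraries deviated with correlations of -0.0084, 0.0036 and 0.064, within the -0.0615 to 0.0665 of the other pairs. No pairing by number was seen, but with only 3 such pairs this cannot decide whether same-numbered cultures share an origin. With the replicate block 6 of the 8 genes and 60 pathway genes were called, against 49.6% of all genes tested. Log2 fold changes in that fit were 0.76 for Pik3cd and 0.62 for Akt1. Adding the counts of matching pseudogenes, an alternative chosen after seeing the data, changed no call. Over scalings the median of all genes moved between -0.048 and 0.064. Pik3cb, with 214 to 350 counts per library, has the widest interval of the 8 genes.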
